A study of Homo sapiens with 6 samples.

Results

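FOXO1, FOXO3 and FOXO4, the forkhead transcription factors of the FOXO class, and 7 genes linked to their programme of cell quiescence (TXNIP, ARRDC4, PIK3IP1, IRS2, CITED2, KLF9 and SESN3) were followed in PANC-1 cells after silencing of METTL16. The 10 genes were taken by symbol from the 58735 rows of the deposited table, and all 10 had 1 row each. All 10 were also among the 15089 genes with enough counts to be tested. PANC-1 is an established human line of pancreatic ductal adenocarcinoma. RNA-seq was done on biological triplicates of each group: 3 samples that received a control siRNA (si-NC) and 3 silenced with an siRNA to METTL16 (si-METTL16, or silenced samples), which encodes an RNA m6A methyltransferase. A label of the control samples also calls them WT, and the methods describe the transfection as stable. The labels give DMEM with serum as the medium of all samples and name no treatment beside the siRNA, and the methods describe the medium of this line as high in glucose. The siRNA used for sequencing and the time from transfection to harvest are not given in the sources used here.

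FOXO factors bind DNA in cells with little insulin or growth factor signalling. When AKT or SGK kinases are active they phosphorylate the factors, 14-3-3 proteins hold them in the cytoplasm, and their targets fall silent, so that FOXO activity is set largely by protein location and not by mRNA level. Several of the genes studied here close loops on that pathway: IRS2 carries the insulin signal to PI3K, PIK3IP1 inhibits PI3K, and SESN3 restrains mTORC1. TXNIP and ARRDC4 are alpha-arrestins that reduce glucose uptake, and both are also targets of the glucose-sensing factor MondoA with its partner MLX.

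IRS2 and CITED2 rose after METTL16 silencing, IRS2 by 2.13-fold and CITED2 by 1.47-fold. TXNIP, ARRDC4 and KLF9 fell, to 65.9%, 58.0% and 60.5% of the control level. The mRNAs of FOXO1, FOXO3 and FOXO4 themselves, and those of PIK3IP1 and SESN3, did not pass the test. Thus 5 of the 10 genes were called, 2 higher and 3 lower, at an adjusted p under 0.05 (edgeR's quasi-likelihood test, p adjusted by Benjamini-Hochberg over all genes tested). Over all genes tested, 35.9% were called, 18.4% higher and 17.5% lower. The groups did not overlap for 6 of the 10 genes, beside 50.9% of all genes tested. Their median log2 fold change was -0.07, against -0.0045 over all genes tested, and their median absolute log2 fold change was 0.47, against 0.33. The called genes thus moved in both directions, and whether their share of calls differs from that of the whole table was not tested.

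**Figure D1:**
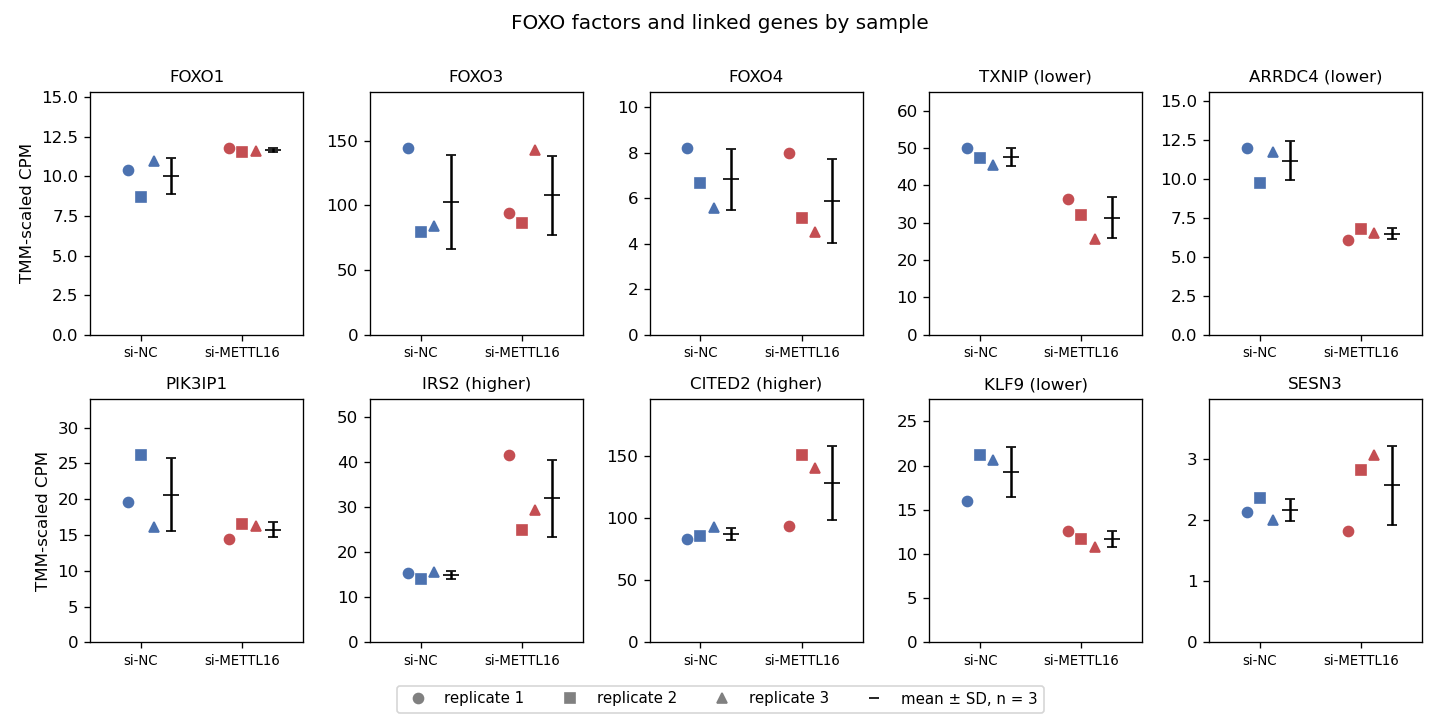
TMM-scaled CPM (counts scaled to a common library size, y axis, from 0) of each of the 10 genes in the 3 si-NC samples (blue) and the 3 silenced samples (red), with the marker shape giving the replicate number and the bar the mean ± SD (n = 3). IRS2 and CITED2 (higher) and TXNIP, ARRDC4 and KLF9 (lower) passed the test, while FOXO3 has 1 high sample in each group.

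METTL16 itself was at 91.5, 96.7 and 101 CPM in the si-NC samples and at 34.8, 33.9 and 34.9 CPM in the silenced samples, where CPM is the count scaled to a common library size, corrected by TMM. It fell to 35.9% of the control level (log2 fold change -1.48, edgeR adjusted p = 8.3e-05), as the labels require. Library totals lay between 15725298 and 18054436 counts, so that 3 counts correspond to between 0.167 and 0.192 CPM. KRT8, a keratin of simple epithelia, was abundant in all 6 samples, with 27490 to 43797 counts. KRT19, KRT7 and CDH1 fell (log2 fold changes -1.40, -0.84 and -1.09). The other 3 of the 6 epithelial markers were not called, so that 50% of the list was called, beside 35.9% of all genes tested. Of the leukocyte markers, only CD68 had enough counts to be tested and it rose (log2 fold change 0.67), PTPRC had at most 5 counts in any sample and CD3E had 0 in all. Of the endothelial and fibroblast markers, only COL1A1 was tested and it rose (1.27), while DCN had at most 2 counts. Summed over each marker list, the ranges in si-NC and silenced samples were 2855 to 3928 and 3109 to 3401 CPM (epithelial), 5.80 to 6.01 and 7.90 to 9.45 CPM (leukocyte), and 324 to 374 and 801 to 840 CPM (endothelial and fibroblast). The part of these differences in the results was not tested. In bulk RNA, fewer cells with a transcript and less of it in each cell cannot be told apart. The 3 replicates are described as biological, and p-values measure the spread between these samples.

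Promoter sequences were read for the genes because FOXO factors and MondoA recognise short DNA words. All 10 genes matched the RefSeq table of promoters (GRCh38.p14), with 17 windows in all, each running from 250 bases before to 50 after a start site. The FOXO word GTAAACA, searched on both strands, was present in 3 of the 17 windows, 1 each of TXNIP, FOXO4 and PIK3IP1, and in 3.42% of the 35116 windows of the whole table. The E-box CACGTG was present in 2 windows, of ARRDC4 and CITED2, and in 7.26% of all windows. TXNIP also held a pair of E-box-like words with the spacing of a carbohydrate response element, spelled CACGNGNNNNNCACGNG with the sequence of TXNIP in view, which 20 windows of the table (0.057%) contain. The promoters of TXNIP and ARRDC4 are shown because these are the called genes of the list that belong to both programmes, and the short stretches of FOXO4 and PIK3IP1 because they hold the FOXO word. Capitals mark these words, and each sequence runs 5′ to 3′ on the strand of the gene.
TXNIP, 250 bases before the start site, chr1:145996580-145996829, minus strand: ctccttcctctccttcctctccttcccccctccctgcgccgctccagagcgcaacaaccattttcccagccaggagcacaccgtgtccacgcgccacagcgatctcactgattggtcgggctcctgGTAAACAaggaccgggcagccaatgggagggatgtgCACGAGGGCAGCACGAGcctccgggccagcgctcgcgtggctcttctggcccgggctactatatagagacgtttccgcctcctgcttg
ARRDC4, 250 bases before the start site, chr15:97960453-97960702, plus strand: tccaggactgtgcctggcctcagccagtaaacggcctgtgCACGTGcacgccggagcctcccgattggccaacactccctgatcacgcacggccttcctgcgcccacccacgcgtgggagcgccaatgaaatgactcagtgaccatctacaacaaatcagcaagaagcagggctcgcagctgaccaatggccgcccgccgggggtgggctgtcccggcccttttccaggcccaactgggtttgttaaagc
FOXO4, chrX:71095863-71095892, plus strand: cccggcgagtgGTAAACAgagacgtcagga
PIK3IP1, chr22:31292454-31292483, minus strand: taaagagaggcTGTTTACcagaacagcata
In TXNIP the FOXO word starts 124 bases before the start site and the spaced pair 88 bases before it, and in ARRDC4 the E-box starts 210 bases before it. In FOXO4 and PIK3IP1 the FOXO word lies after a RefSeq start site, from base 24 and base 17, and in PIK3IP1 it is read on the opposite strand. The PIK3IP1 window nearest to the deposited start of the gene does not hold the word. In FOXO4 the word lies before the deposited start of the gene (71096197). The called genes KLF9 and IRS2 held neither GTAAACA nor CACGTG in their windows, which says only that these letters are absent there. Binding was not measured.

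FOXO1, on the minus strand of chromosome 13 from 40469953 to 40666597 in the deposited coordinates (GRCh38), encodes the factor best known for the insulin response of liver and muscle. It had 176, 148 and 192 counts in si-NC replicates 1 to 3 (10.4, 8.72 and 10.95 CPM) and 194, 180 and 209 counts in the si-METTL16 replicates (11.8, 11.5 and 11.6 CPM). Every si-METTL16 sample was above every si-NC sample, by a small margin. The level was 10.0 ± 1.16 CPM in si-NC and 11.7 ± 0.144 CPM in silenced cells (SD, n = 3), and the log2 fold change of 0.22 (95% interval -0.08 to 0.51) did not pass the test (edgeR adjusted p = 0.215). The spread of the silenced samples, 1.24% of their mean, is below the 7.17% that counting alone gives at this depth, so the depth cannot resolve a spread this small. The lncRNA LINC00598 overlaps 65855 bases of the deposited FOXO1 locus on the same strand. Its overlap ends at 40535807, outside FOXO1 as annotated in GENCODE v44, which spans 40555667 to 40666641. LINC00598 was given 34 counts over the 6 samples, against 1099 for FOXO1, and how reads of this pair were assigned is not given.

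FOXO3, on the plus strand of chromosome 6 from 108559835 to 108684774, encodes the FOXO factor with the most mRNA in these cells. Its counts were 2444, 1348 and 1474 in si-NC and 1545, 1345 and 2564 in si-METTL16 replicates, which are 145, 79.4 and 84.1 CPM and 94.2, 86.2 and 143 CPM. Thus si-NC replicate 1 and si-METTL16 replicate 3 were high and the other 4 samples lay close together, with the groups overlapping fully. The means were 103 ± 36.4 and 108 ± 30.5 CPM (SD, n = 3), with a log2 fold change of 0.07 (95% interval -0.58 to 0.72, edgeR adjusted p = 0.869). Its coefficient of variation was 35.4% in si-NC and 28.4% in silenced samples, where the 500 genes nearest to it in level had medians of 5.67% and 6.11%, and it stood at percentiles 97.8 and 95.8 of those genes. Counting error at this depth is 2.39% and 2.35%. The near-identical copy FOXO3B, with which FOXO3 may share reads, had 99, 98 and 97 counts in si-NC and 94, 92 and 123 in silenced samples. Of the samples in which FOXO3 was high, si-METTL16 replicate 3 was also the highest for FOXO3B, and si-NC replicate 1 lay among the other samples. Leaving out si-METTL16 replicate 3 turned the log2 fold change of FOXO3 to -0.19, and leaving out si-NC replicate 1 raised it to 0.39, with no call in either case.

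FOXO4, on the plus strand of chromosome X from 71096197 to 71103535, had 139, 113 and 98 counts in si-NC (8.23, 6.66 and 5.59 CPM) and 131, 80 and 81 in silenced samples (7.98, 5.13 and 4.51 CPM). Replicate 1 was the highest of each group, and the groups overlapped. The log2 fold change was -0.22 (95% interval -0.82 to 0.38, edgeR adjusted p = 0.545), from 6.82 ± 1.33 to 5.87 ± 1.85 CPM (SD, n = 3). It was -0.51 without si-METTL16 replicate 1 and -0.05 without si-METTL16 replicate 3, with no call in either case.

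Per length, FOXO3 held most of the mRNA of the 3 factors in every sample. Its share of their summed FPKM, the deposited count divided by gene length and library size, was 74.5%, 66.1% and 66.5% in si-NC and 64.5%, 67.1% and 77.9% in silenced samples. The shares of FOXO1 were 12.1%, 16.4% and 19.6% and then 18.3%, 20.3% and 14.4%, and those of FOXO4 were 13.3%, 17.4% and 13.9% and then 17.2%, 12.5% and 7.73%. The highest shares of FOXO3 fell in the same samples in which its level was high. Between the groups, the mean shares of FOXO1, FOXO3 and FOXO4 differed by 1.61, 0.779 and -2.39 percentage points (two-sided exact permutation tests, unadjusted p = 0.6, 0.8 and 0.4 over 3 comparisons, where 3 samples against 3 allow no p below 0.1). The summed FPKM of the 3 factors was 13.6, 8.43 and 8.88 in si-NC and 10.0, 8.89 and 12.7 in silenced samples, so the order of the samples follows FOXO3.

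**Figure D2:**
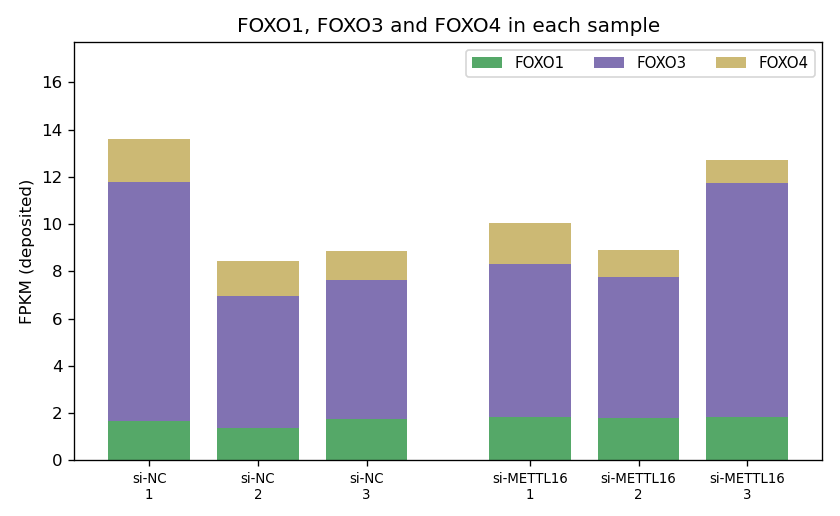
Deposited FPKM (y axis) of FOXO1, FOXO3 and FOXO4, stacked for each of the 3 control and 3 silenced samples. The FOXO3 segment is the largest in every bar, and the tallest bars are si-NC replicate 1 (13.6) and si-METTL16 replicate 3 (12.7).

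TXNIP, the thioredoxin-binding alpha-arrestin that lowers glucose uptake, lies on the minus strand of chromosome 1 from 145992435 to 145996600. It had 846, 803 and 795 counts in si-NC (50.1, 47.3 and 45.3 CPM) and 598, 498 and 461 in silenced samples (36.4, 31.9 and 25.6 CPM). All silenced samples were below all si-NC samples. The level fell from 47.6 ± 2.37 to 31.3 ± 5.42 CPM (SD, n = 3), a log2 fold change of -0.60 (SE 0.13, 95% interval -0.91 to -0.29, edgeR adjusted p = 0.0115).

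ARRDC4, its closest relative in function, lies on the plus strand of chromosome 15 from 97960698 to 97973838. Its counts were 203, 165 and 206 in si-NC (12.01, 9.72 and 11.8 CPM) and 100, 106 and 117 in silenced samples (6.09, 6.80 and 6.51 CPM). The groups were well apart and the silenced samples close to each other. The mean went from 11.2 ± 1.25 to 6.47 ± 0.353 CPM (SD, n = 3), with a log2 fold change of -0.79 (SE 0.14, 95% interval -1.11 to -0.47, edgeR adjusted p = 0.0043).

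KLF9, a Krüppel-like repressor that is induced by glucocorticoids and in quiescent cells, lies on the minus strand of chromosome 9 from 70384597 to 70414624. It had 271, 359 and 362 counts in si-NC (16.0, 21.2 and 20.6 CPM) and 206, 182 and 194 in silenced samples (12.6, 11.7 and 10.8 CPM). The highest si-METTL16 sample remained below the lowest control, si-NC replicate 1. The log2 fold change was -0.72 (SE 0.14, 95% interval -1.05 to -0.40, edgeR adjusted p = 0.00656), from 19.3 ± 2.82 to 11.7 ± 0.881 CPM (SD, n = 3).

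IRS2, the adaptor that links the insulin and IGF1 receptors to PI3K, lies on the minus strand of chromosome 13 from 109752698 to 109786568 and had the largest change of the 10 genes. Its counts were 260, 238 and 272 in si-NC (15.4, 14.02 and 15.5 CPM) and 681, 390 and 528 in silenced samples (41.5, 25.01 and 29.4 CPM). The controls were tight and each si-METTL16 sample lay far above them, replicate 1 most of all. The level rose from 14.98 ± 0.826 to 32.0 ± 8.55 CPM (SD, n = 3), a log2 fold change of 1.09 (SE 0.19, 95% interval 0.65 to 1.53, edgeR adjusted p = 0.00417).

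CITED2, a transcriptional co-regulator that competes with HIF1A for CBP and p300, lies on the minus strand of chromosome 6 from 139371807 to 139374620. Its counts were 1407, 1453 and 1623 in si-NC (83.3, 85.6 and 92.6 CPM) and 1543, 2349 and 2526 in silenced samples (94.0, 151 and 141 CPM). The si-METTL16 replicates 2 and 3 were clearly higher, but replicate 1 was barely above the highest control. The level rose from 87.2 ± 4.85 to 128 ± 30.2 CPM (SD, n = 3), with a log2 fold change of 0.56 (SE 0.17, 95% interval 0.17 to 0.95, edgeR adjusted p = 0.0362). This call was the least stable of the 5: it was lost in 8 of 14 other settings at the same threshold, including the omission of any of the 3 si-NC samples or of si-METTL16 replicate 2 or 3 (edgeR adjusted p between 0.0731 and 0.108). Without si-METTL16 replicate 1, the log2 fold change was 0.74 (edgeR adjusted p = 0.00211). IRS2 and CITED2 thus ranked the silenced samples differently, with replicate 1 highest for IRS2 and lowest for CITED2.

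PIK3IP1, a membrane protein that inhibits the catalytic subunit of PI3K, lies on the minus strand of chromosome 22 from 31281593 to 31292534. It had 332, 443 and 282 counts in si-NC (19.6, 26.1 and 16.1 CPM) and 238, 257 and 293 in silenced samples (14.5, 16.5 and 16.3 CPM). The si-NC samples were spread and the lowest of them lay among the silenced samples. The log2 fold change was -0.39 (95% interval -0.81 to 0.04, edgeR adjusted p = 0.135), from 20.6 ± 5.08 to 15.8 ± 1.09 CPM (SD, n = 3). The omission of si-NC replicate 3, the lowest control, gave -0.54 and a call (edgeR adjusted p = 0.047).

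SESN3, the sestrin that FOXO factors induce and that holds back mTORC1, lies on the minus strand of chromosome 11 from 95165513 to 95232541 and was the least abundant of the 10. It had 36, 40 and 35 counts in si-NC (2.13, 2.36 and 2.00 CPM) and 30, 44 and 55 in silenced samples (1.83, 2.82 and 3.06 CPM). The groups overlapped, with si-METTL16 replicate 1 lowest of all 6 samples. The log2 fold change was 0.25 (95% interval -0.35 to 0.85, edgeR adjusted p = 0.482), and at this depth counting error alone is 16.4% and 15.2% of the mean. The lncRNA AP000787.1 covers the gene on the opposite strand and was given 30 counts over the 6 samples, against 240 for SESN3. Because the use of strand in counting is not given, reads of this pair cannot be told apart.

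**Figure D3:**
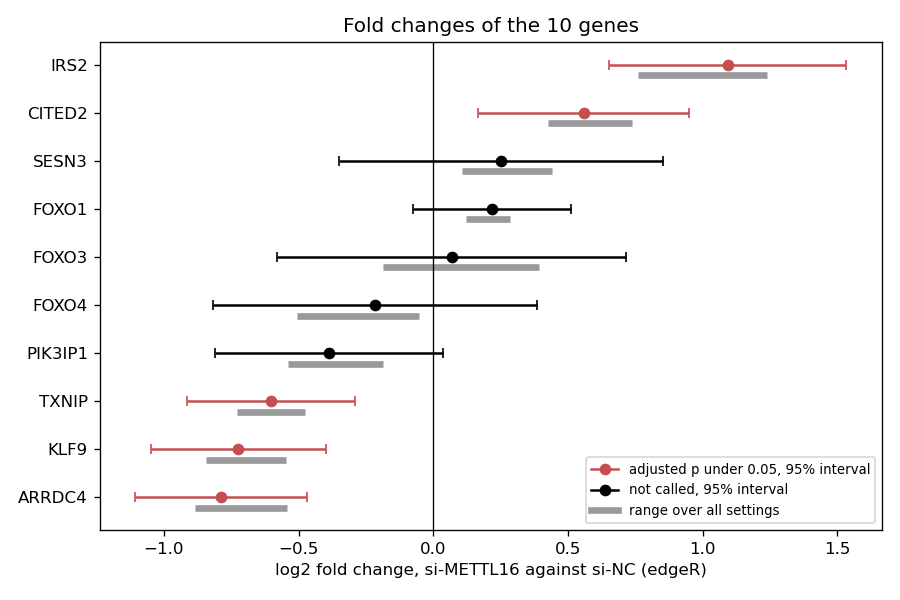
Log2 fold change of each gene, si-METTL16 against si-NC (x axis), with its 95% interval (red, adjusted p under 0.05; black, not called) and, as a grey bar, the range over the alternative settings. The intervals of IRS2, CITED2, TXNIP, KLF9 and ARRDC4 lie to 1 side of 0, and the grey bar of FOXO3 runs from -0.19 to 0.39.

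At the same threshold, TXNIP, ARRDC4, IRS2 and KLF9 were called in 14 of 14 other settings each, and at an adjusted p under 0.01 TXNIP was not called. With any 1 sample omitted, their log2 fold changes ranged from -0.73 to -0.47 for TXNIP, from -0.88 to -0.74 for ARRDC4, from 0.86 to 1.24 for IRS2 and from -0.85 to -0.66 for KLF9. FOXO1, FOXO3, FOXO4 and SESN3 were called in none of the settings in which they were tested.

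In order of deposited FPKM, CITED2 was the highest of the genes in si-NC cells (17.1), followed by TXNIP (8.94), FOXO3 (7.21), KLF9 (3.75), ARRDC4 (2.76), PIK3IP1 (1.94), IRS2 (1.85), FOXO1 (1.59), FOXO4 (1.51) and SESN3 (0.176). TXNIP and FOXO3 were not separated, since FOXO3 ranged from 5.57 to 10.1, and neither were the neighbours from ARRDC4 down to FOXO4, each of which overlapped the next in its sample values. After silencing, IRS2 moved from rank 7 to rank 4 (3.89), and ARRDC4 moved from rank 5 to rank 7 (1.57). FOXO3 (7.45) then stood above TXNIP (5.80), again with overlapping samples. The order depends on the length behind the deposited FPKM of each gene. The length implied by count and FPKM was within 1% of the MANE Select transcript for 3 genes (ARRDC4, IRS2 and KLF9) and over 1.5 times it for 4. For PIK3IP1 it was 10660 bases against a transcript of 2420, for FOXO3 14332 against 7296, for CITED2 5134 against 2382 and for TXNIP 5352 against 2905. For CITED2 and TXNIP it was also longer than the whole deposited locus, of 2814 and 4166 bases. Implied lengths ran long in the table at large. Over 11101 well-counted genes, the median was 1.535 times the merged GENCODE v44 exons of the gene (quartiles 1.182 and 1.947). By this measure TXNIP (1.485) and FOXO3 (1.869) lay between the quartiles, and CITED2 (2.003) and PIK3IP1 (2.802) above them. Per kilobase of the MANE Select transcript, PIK3IP1 was at 8.52 ± 2.10 CPM (SD, n = 3) among controls and ranked 4 instead of 6. On that scale, IRS2 moved from rank 8 to rank 5 after silencing, and ARRDC4 from rank 6 to rank 9. Fold changes within a gene do not depend on this length.

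Relatives of the 10 genes were described family by family. Of the other alpha-arrestins, ARRDC1 fell (log2 fold change -0.77), ARRDC3 rose (0.58), ARRDC2 was not called (-0.10, 95% interval -0.31 to 0.11) and ARRDC5 had 0 counts. ARRDC3, which promotes the degradation of receptors, was at 59.8, 75.1 and 60.8 CPM in si-NC and at 86.3, 115 and 91.5 CPM in silenced samples, opposite in direction to TXNIP and ARRDC4. Without si-NC replicate 1 or si-NC replicate 3, only 1 of these alpha-arrestins was called. Among adaptors of the IRS and GAB type, IRS1 rose with IRS2 (0.33), GAB2 rose (0.58) and GAB1 fell (-0.78), while IRS4 had at most 4 counts. IRS1 was at 135, 120 and 125 CPM in si-NC and at 164, 151 and 161 CPM in silenced samples, with no overlap. Of the sestrins, SESN1 fell (-0.39, edgeR adjusted p = 0.0281) and SESN2 was not called, its samples scattering from 29.1 to 72.8 CPM within the si-METTL16 group. The call of SESN1 was lost without si-NC replicate 1, si-NC replicate 2 or si-METTL16 replicate 3.

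Among the relatives of CITED2, CITED4 rose (0.65) from 27.8, 21.8 and 26.4 CPM to 48.9, 33.5 and 36.4 CPM. TFAP2C (0.33), EPAS1 (0.27) and HIF1A (0.23), genes of the factors that CITED proteins act on, also passed the test. The list had 4 calls of 6 genes (66.7%, beside 35.9% of all genes). It had only 1 without si-NC replicate 2 or si-NC replicate 3, and 2 without si-METTL16 replicate 1 or 3. CITED1 was at 0.305 to 2.60 CPM and did not pass (-1.30, edgeR adjusted p = 0.0763). Of the 9 tested relatives of KLF9 and genes of the glucocorticoid response, 3 rose and 1 fell (44.4% called, beside 35.9% of all genes). KLF10 fell (-0.74), although its si-METTL16 replicate 3 (147 CPM) lay near the controls (166 to 179 CPM). The glucocorticoid-induced genes DUSP1 (1.03), FKBP5 (0.77) and PER1 (0.75) rose, while TSC22D3, also induced by glucocorticoids, was not called (-0.22, edgeR adjusted p = 0.472) and ZBTB16 had 0 counts. The remaining FOXO factor, FOXO6, named after its values were seen, was scarce: its counts were 30, 18 and 18 in si-NC and 9, 8 and 14 in silenced samples, with a log2 fold change of -1.05 that did not pass (edgeR adjusted p = 0.0593). Of 9 other forkhead genes including FOXO6, 3 rose and none fell (33.3% called, beside 35.9% of all genes). The risers were FOXM1 (1.30), a driver of mitotic genes that FOXO factors oppose, FOXK2 (0.74) and FOXJ3 (0.25).

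Genes that act on FOXO factors were described by lists. In the pathway from insulin receptor to AKT and mTOR, 27 genes were tested, of which 5 rose and 4 fell (33.3% called, beside 35.9% of all genes), with a median log2 fold change of -0.02. SGK1, a kinase that phosphorylates FOXO3, rose (0.97) from 51.8, 55.7 and 47.7 CPM to 89.0, 95.4 and 120 CPM. AKT1 (0.41), IRS1 and the AKT phosphatase PHLPP1 (0.56) rose too, while PIK3CD (-1.08), PIK3R1 (-0.87), TSC1 (-0.65) and EIF4EBP1 (-0.54) fell. PIK3R1 passed narrowly (edgeR adjusted p = 0.0451, 95% interval -1.53 to -0.22). The genes called in this list ranged from 6 to 11 over the settings at the same threshold. Of 24 genes whose proteins bind or modify FOXO factors, 10 rose and none fell (41.7% called, beside 35.9% of all genes, of which 18.4% were higher), with a median of 0.22. The 14-3-3 genes YWHAH (0.94) and SFN (0.84), the ubiquitin ligase component SKP2 (0.76) and the arginine methyltransferase PRMT1 (0.63) had the highest values. YWHAH was at 84.4, 97.4 and 79.9 CPM in si-NC and at 164, 167 and 172 CPM in silenced samples.

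Among 27 other genes described as FOXO targets, 8 rose and 7 fell (55.6% called, beside 35.9% of all genes), with a median of 0.03. SOD2 (1.39), TRIB1 (1.12) and FBXO32 (1.08) rose, as did GABARAPL1 (1.44), whose groups overlapped. PPARGC1A (-2.54), BBC3 (-1.15), TP53INP1 (-1.12) and CCNG2 (-0.91) fell. PPARGC1A was scarce, at 30, 18 and 56 counts in si-NC and 4, 6 and 7 in silenced samples (95% interval -3.73 to -1.35). FBXO32, the atrophy ubiquitin ligase, was at 17.0, 17.0 and 16.0 CPM in si-NC and at 38.3, 36.0 and 31.5 CPM in silenced samples, and TP53INP1, an autophagy and arrest gene, was at 36.7, 35.8 and 37.3 CPM and then at 16.6, 16.6 and 17.3 CPM. All genes tested also split between the directions, with 18.4% higher and 17.5% lower.

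In the list of quiescence and growth arrest genes, 23 were tested, of which 2 rose and 9 fell (47.8% called, beside 35.9% of all genes), with a median of -0.21. Some genes of this list, CCNG2 among them, were also counted among the other FOXO targets. DYRK1B (-1.13), a kinase that maintains quiescence, fell from 201, 201 and 179 CPM to 91.0, 82.3 and 92.5 CPM. The CDK inhibitor CDKN1C (-0.91), CCNG2 and the MYC antagonist MXD4 (-0.76) fell as well. LIN9 (1.27) and RBL1 (1.00), the risers of the list, encode subunits of cell cycle complexes that are also expressed in cycling cells. Of 9 proliferation markers, 8 rose and none fell (88.9% called, beside 35.9% of all genes), with a median of 0.98. These markers moved with the group in the same samples as KLF9, TXNIP and ARRDC4, and their part in those results was not tested.

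Of the 11 tested genes of the MondoA-MLX network and the partners of TXNIP, 2 rose and 3 fell (45.5% called, beside 35.9% of all genes), with a median of 0.09. HK2 (0.83), which phosphorylates glucose, and the thioredoxin gene TXN (0.43) rose, while DDIT4 (-0.78), the mitochondrial thioredoxin TXN2 (-0.57) and MLXIP (-0.32), which encodes MondoA, fell. MLXIP was at 172, 180 and 177 CPM in si-NC and at 142, 132 and 150 CPM in silenced samples. TXNIP, ARRDC4 and the MondoA gene were all lower after silencing, and whether these changes are linked was not tested.

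**Figure D4:**
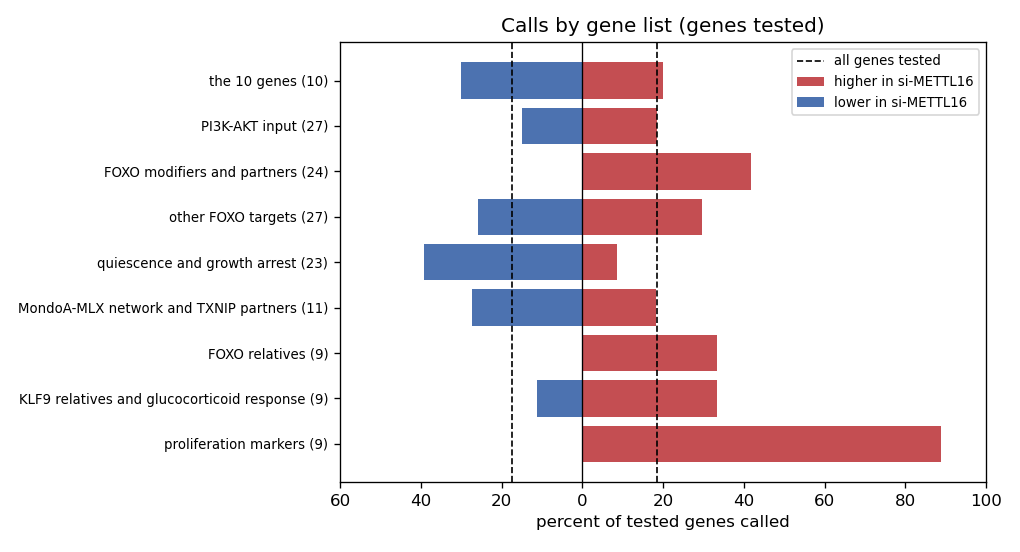
Percent of tested genes called higher (right, red) or lower (left, blue) in silenced cells for each list of at least 9 tested genes, with the number tested in brackets and dashed lines at the shares over all genes tested (18.4% higher, 17.5% lower). The FOXO modifiers reach 10 of 24 on the higher side with none lower, and the quiescence genes 9 of 23 on the lower side.

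Genes with the pattern most like each FOXO factor or TXNIP over the 6 samples were found by the mean absolute difference of log2 CPM, each gene set against its si-NC mean, among the genes at or above 10 CPM (10002 for FOXO1, FOXO3 and TXNIP). For TXNIP these were HNRNPH2 (0.035), DENND1B (0.051) and KIF1A (0.053), all of which fell, as their choice by this pattern requires. For FOXO3 they were ANAPC13 (0.052), SRP9 (0.135) and BCKDK (0.161). ANAPC13, chosen for this likeness, was high in si-NC replicate 1 and si-METTL16 replicate 3, as FOXO3 was. For FOXO1 they were HLA-H (0.026), MAP3K7 (0.041) and DENND3 (0.042), and for FOXO4 they were RPP38 (0.055), UBALD2 (0.091) and MTRF1L (0.0999).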

How the data were processed

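The 10 genes and all gene lists were chosen with earlier results of these data known, so that their counts are descriptions. The authors deposited unnormalized counts for each gene of 6 libraries of 15725298 to 18054436 counts, and the deposited FPKM values (count divided by gene length and library size). The submitters' processing notes name HISAT2 2.0.4, StringTie 1.3.0 and GRCh38. The counting program, annotation release and use of strand are not given in the sources used here, so overlapping genes are uncertain.

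Samples were grouped by their titles. The 27 symbols stored as dates were restored from the gene identifiers. For SOD2, which has more than 1 row, the row with more counts was used. Genes were filtered with filterByExpr (minimum count 10, minimum total 15) and fitted over the whole table after TMM scaling with edgeR 4.0.16 (glmQLFTest, R 4.3.3), since raw counts were deposited. The study names limma, which was run as an alternative. P-values were adjusted by Benjamini-Hochberg over 15089 genes, with a threshold of 0.05. CPM values for the comparison of patterns had a prior count of 2. The biological coefficient of variation was 16.5% in common. The alternatives comprised a replicate block, each sample left out, no filter, a minimum of 10 counts in each sample, size factors of DESeq2, DESeq2 1.42.0, limma 3.58.1 on voom values and on log2(FPKM + 1) or log2(FPKM + 0.1) for genes whose FPKM averaged 1 or more, and a threshold of 0.01. Of the lists, at most the 4 highest and 4 lowest called genes were named, and any gene of lists of 6 or fewer. FOXO6, TSC22D3 and ZBTB16 were named beyond this rule. Some genes are in more than 1 list. Deposited coordinates equal GENCODE v44 for 2 of the 10 genes. On simulated data with 200 changed genes among 15089, edgeR called 161 in the true direction and 12 of those not changed. The simulated share of changed genes was far below the 35.9% called in these data, so recovery at the latter share was not tested. Marker and depth values of single genes cover counting error only.

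The other experiments of the study were not analysed here.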

Additional observations from a re-analysis of the deposited data

How the results depend on the processing

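The number of genes called was 5418 at an adjusted p under 0.05 and 3035 under 0.01, where 3 of the 10 genes (ARRDC4, IRS2 and KLF9) remained. The other settings gave between 4159 and 5487 genes, and 4 or 5 of the 10. The same-numbered samples of the groups deviated together only weakly (correlations of 0.0253, 0.0371 and 0.0298). The mean for different numbers was -0.0154. With 3 samples per group, these values cannot show whether the samples were paired. With the replicate block, 5013 genes were called, 4731 of them shared with the fit without it, and 5 of the 10 genes, with a median log2 fold change of -0.08.

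The median log2 fold change of the 10 genes, -0.07, lay between -0.20 and 0.085 with single samples left out, and was -0.25 with limma on log2(FPKM + 0.1), over the 9 genes without SESN3. Its sign is thus not fixed. The difference in FOXO share of FOXO1 turned without si-NC replicate 1 (-0.344 percentage points) and otherwise kept its sign, at most 3.38. That of FOXO3 turned without si-NC replicate 2 (-0.680), si-NC replicate 3 (-0.499) and si-METTL16 replicate 3 (-3.25), and was at most 3.52, without si-NC replicate 1. That of FOXO4 ran from -4.74 without si-METTL16 replicate 1 to -0.0146 without si-METTL16 replicate 3. The log2 fold change of FOXO3 was -0.09, -0.06 and -0.19 without si-NC replicate 2, si-NC replicate 3 and si-METTL16 replicate 3, and at most 0.39, without si-NC replicate 1. Per kilobase of the MANE Select transcript, an alternative chosen after seeing the data, the FOXO3 share went from 78.9% to 79.6%. Among the small lists, the genes called ranged from 1 to 4 for the relatives of CITED2, from 1 to 3 for the IRS adaptors, from 1 to 2 for the alpha-arrestins and from 0 to 1 for the sestrins, and the cause was not tested. Depth limits SESN3, FOXO6, CITED1 and PPARGC1A, and 3 replicates per group limit all values.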
